A study of Homo sapiens with 27 samples.

Results

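U8 (gene SNORD118) and U13 (gene SNORD13) are small nucleolar RNAs (snoRNAs) of the C/D box class that act in the processing of ribosomal RNA. Every row that the snoRNA table of the DKC1 experiment lists under these gene names was taken, which gave 4 pseudouridine (Ψ) sites, 3 in U8 and 1 in U13, of 73 sites in 53 genes. The RNA came from HEK293T cells, a human embryonic kidney line, with either a knockdown of DKC1 or the matching negative control, labelled DKC1 KD and DKC1 NC. Each genotype had 2 libraries treated with PRAISE and 1 untreated library, so 6 of the 27 samples of the series enter here, and all 6 were demethylated with AlkB before the split into treated and untreated RNA. The labels give neither the means of knockdown nor the number of clones, and the table holds no DKC1 transcript level, so how far DKC1 was lowered was not measured here.

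PRAISE uses a bisulfite-type reagent that leaves an adduct on Ψ, which reverse transcriptase passes with a deletion. The percentage of covering reads that lack the base, here called the level of a site, therefore reports Ψ there, and the same percentage in untreated RNA is the background. The treated libraries are technical replicates according to the labels, so p-values measure technical spread only.

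As background, DKC1 encodes dyskerin, the Ψ synthase of the H/ACA ribonucleoproteins, in which an H/ACA snoRNA pairs with the target RNA and selects the uridine. Dyskerin also binds H/ACA RNAs themselves and keeps them stable. C/D box snoRNAs belong to a different particle, which mostly guides ribose methylation, but a few of them are needed for cleavage of the ribosomal RNA precursor instead. U8 is needed to mature the RNAs of the large ribosomal subunit, as shown first in Xenopus, and its 5′ end can pair with the precursor. Mutations of SNORD118 cause a leukoencephalopathy with calcifications and cysts. U13 pairs with the RNA of the small subunit near its 3′ end, and in human cells it is required for an acetylation of cytidine there by NAT10.

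The 3 U8 sites are shown with the bases around them, because they differ in where they lie and in how much of their level was left in the knockdown. The sequences are the RNA strand of U8 as DNA letters, from GENCODE release 29 (GRCh38). Capitals mark the uridine or pair of uridines that carries the deletions. Positions count from 1 at the 5′ end of the RefSeq RNA named in the table, which begins 1 base before the GENCODE transcript.
U8 site 10, chr17:8173567-8173587, minus strand: tcgtcaggTgggataatcctt
U8 site 21-22, chr17:8173555-8173580, minus strand: gtgggataatccTTacctgttcctcc
U8 site 107-108, chr17:8173469-8173494, minus strand: cgtaatcaggacTTgcaacaccctga

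Site 10 is a single uridine, whereas 21-22 and 107-108 are each a pair of uridines, in which a deletion cannot be placed on one base or the other. Sites 10 and 21-22 lie close together near the 5′ end of the RNA, and 107-108 lies in its 3′ part. On the RNA strand, the C box letters ATGATGA occurred once, at positions 55 to 61, so the 5′ sites lie before the C box and 107-108 after it. The D box letters CTGA occurred at 117 to 120 and at 131 to 134. Among 955 snoRNA transcripts of GENCODE, 20.4% hold the first motif, 71.2% the second and 19.3% both. SNORD118 (ENSG00000200463.1) runs from 8173454 to 8173587 on chromosome 17 in GENCODE. It lies inside an exon and annotated untranslated region of TMEM107, a protein-coding gene on the same strand. SNORD13 (ENSG00000239039.1) is 104 bases long and runs from 33513475 to 33513578 on the plus strand of chromosome 8. It lies inside an annotated untranslated region of TTI2, which is on the opposite strand. Its site 72-73 is also a pair of uridines. GENCODE names 3 further SNORD13 genes, SNORD13E, SNORD13P1 and SNORD13P3, identical to SNORD13 at 88.5%, 89.4% and 95.2% of its positions. Whether the authors' counting separated their reads is not given in the sources used here, so the U13 value is uncertain in that respect.

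Depth differed widely between the 2 RNAs. Over all 73 sites the median coverage per site was 155 and 197 reads in the treated knockdown libraries, against 435 and 494 in the treated controls. U8 site 21-22 had the highest control coverage of the 62 sites tested, and U8 site 10 the second highest. U13 stood far lower, at rank 51. All 4 sites had the required 20 reads in every treated library, as did 62 of the 73. The knockdown deletion counts in the deposited table contradict the rates beside them, so rate times covering reads was used in their place. This product was a whole number, within 0.02, at all 73 sites in both libraries.

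U8 and U13 carried less deletion signal in DKC1 knockdown than in control cells, at all 4 sites and in every treated library. U13 lost the most, with 14.9% of its control level left, and U8 site 107-108 the least, with 51.3% left. Within U8 the share left was 18.6% at site 10, 38.1% at site 21-22 and 51.3% at site 107-108.

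U13 is described first because its difference was the largest of all 62 sites tested. At site 72-73 the level was 9.93% (15 of 151 reads) and 9.70% (16 of 165 reads) in the knockdown, against 67.9% (91 of 134) and 63.4% (111 of 175) in the control. The knockdown libraries lay far below both control libraries, and their exact 95% intervals, 5.67% to 15.9% and 5.64% to 15.3%, did not reach those of the control, 59.3% to 75.7% and 55.8% to 70.6%. The mean level fell to 9.82% ± 0.167 in the knockdown, against 65.7% ± 3.17 in the control (SD, n = 2 each), a difference of -55.9 points with a standard error of 3.68. The quasi-binomial model moderated with limma gave an adjusted p of 1.52e-37 over all 62 sites. Untreated RNA had 0 deletions in 138 reads in the knockdown and 0 in 144 in the control, which allows backgrounds of up to 2.17% and 2.08%. Such intervals and limits cover counting error only.

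At U8 site 21-22 the level was 14.0% and 13.9% in the knockdown, over 53572 and 68739 reads, against 36.6% and 36.8% in the control, over 62718 and 67616 reads. The libraries of each genotype lay within a fraction of a point of each other. The mean fell to 14.0% ± 0.123, against 36.7% ± 0.145 in the control (SD, n = 2 each), a difference of -22.7 points with a standard error of 0.192. The limma-moderated model gave an adjusted p of 2850 on the −log10 scale, a size that rests on the binomial read counts and a single dispersion for all sites. On the 4 percentages alone, limma gave an adjusted p of 0.000475 at this site, 0.000773 at U13, 0.00255 at U8 107-108 and 0.00428 at U8 10. With a knockdown library left out, the adjusted p at the 4 sites ran up to 0.0229, so all stayed under 0.05 in these fits.

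At U8 site 107-108 the level was 24.0% and 24.4% in the knockdown, over 3791 and 4121 reads, and 48.7% and 45.7% in the control, over 3635 and 4209 reads. The control libraries were 3 points apart, more than those of the knockdown, yet both stood well above the knockdown. The mean fell to 24.2% ± 0.271, against 47.2% ± 2.12 (SD, n = 2 each), a difference of -23.0 points with a standard error of 0.858 and an adjusted p of 1.84e-148 in the limma-moderated model. In points this was close to site 21-22, but a larger share of the control level was left.

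U8 site 10 was the weakest of the 4. Its level was 1.78% and 1.79% in the knockdown, over 42081 and 52969 reads, against 9.44% and 9.74% in the control, over 47486 and 51172 reads. The means were 1.78% ± 0.00695 and 9.59% ± 0.209 (SD, n = 2 each), a difference of -7.80 points with a standard error of 0.119. The limma-moderated model gave an adjusted p of 969 on the −log10 scale. A control level under 10% cannot fall by the 10 points that a call also required, so the site was not called, and the same holds for 10 of the 62 sites.

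Background did not approach these levels in U8. In untreated RNA the knockdown had 0.0147%, 0.0242% and 0.189% at sites 10, 21-22 and 107-108, and the control had 0.00837%, 0.0369% and 0.166%. The highest of these, at 107-108, rested on 17 of 9011 reads in the knockdown and 15 of 9041 in the control.

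**Figure D1:**
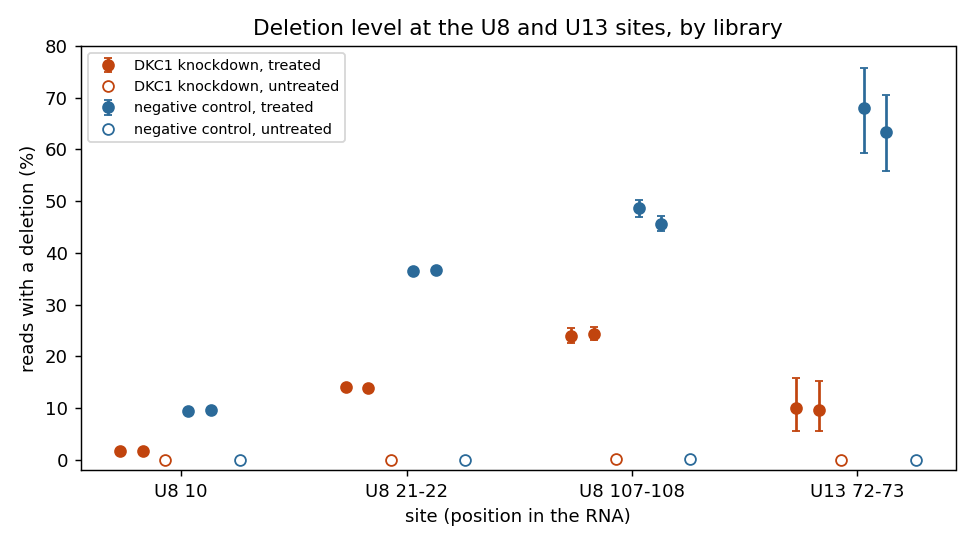
Level (reads with a deletion, in percent) at each U8 and U13 site, 1 point per library with its exact 95% counting interval for treated libraries; open circles are untreated libraries. Knockdown points lie below control points at every site, with the widest gap at U13, where means are 9.82% and 65.7%.

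Under the call rule, an adjusted p under 0.05 and at least 10 points, 3 of the 4 sites were lower, U8 21-22, U8 107-108 and U13 72-73. Across the whole table, 17 of 62 sites were lower, which is 27.4%. Without the 10-point requirement all 4 passed, but so did 43 of 62 sites (69.4%), so passing the p threshold alone says little about U8 and U13. With 1 knockdown library left out, whichever it was, the table count was 7 and the same 3 sites of U8 and U13 were called. No site was called higher in the knockdown by this model (0 of 62, 0%), by limma on percent or by Fisher's exact test, and 0 of the higher sites had an unadjusted p under 0.05. The lowest control level in a treated library was 5.33%, at SNORD3A site 181-182, whereas knockdown levels reached 0%, at SNORD134 site 80-81. How sites came to be listed is not given. A filter on the control level would leave out sites low in the control and higher in the knockdown, so the count of higher sites cannot show that there were none.

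**Figure D2:**
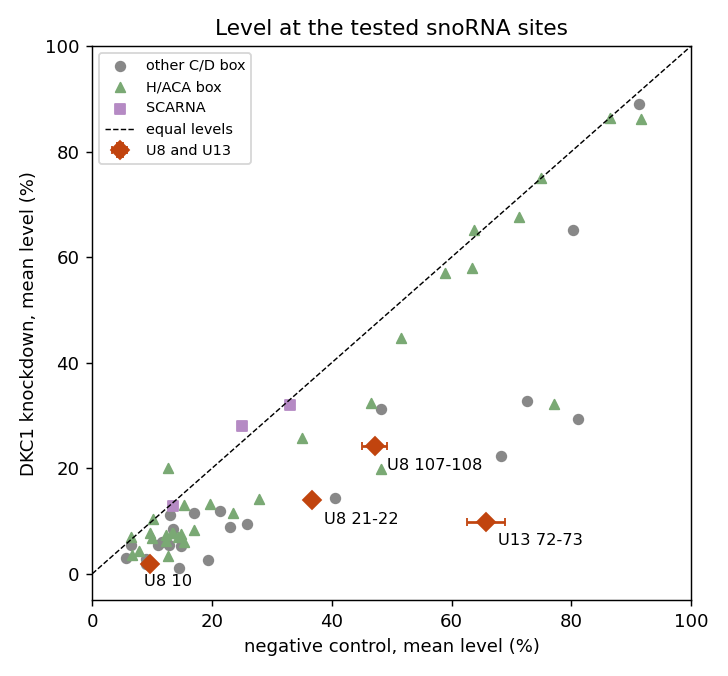
Mean level in DKC1 knockdown (vertical) against negative control (horizontal), in percent, for the 62 tested snoRNA sites; bars on the U8 and U13 points are SDs of 2 libraries. All 4 points, and 57 of the 62 sites in all, lie below the line of equal levels, U13 farthest from it at -55.9 points. How sites came to be listed is not given, and a filter on the control level would favour points below the line.

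The order of the 4 levels was not the same in the genotypes. In the knockdown it was U8 107-108 (24.2%), U8 21-22 (14.0%), U13 72-73 (9.82%) and U8 10 (1.78%). In the control it was U13 72-73 (65.7%), U8 107-108 (47.2%), U8 21-22 (36.7%) and U8 10 (9.59%). The libraries of neighbouring sites did not overlap in either genotype. The single-library counting intervals of U13 in the knockdown, however, include the levels of U8 21-22, and the order of those neighbours was not tested.

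The share of the control level left was compared between sites as a ratio, over all 6 pairs of the 4 sites, with p-values adjusted over the pairs. Within U8, site 10 kept 0.489 times the share that 21-22 kept (95% interval 0.460 to 0.520, adjusted p = 5.67e-114 with the limma-moderated dispersion). Site 10 kept 0.363 times the share of 107-108 (0.335 to 0.393, adjusted p = 1.09e-138 with the same model). Site 21-22 kept 0.742 times the share of 107-108 (0.702 to 0.784, adjusted p = 1.52e-25 with the same model). That model uses a single dispersion for all sites, so the wider spread of the controls at 107-108 does not widen this interval. With dispersion moderated over the snRNA and snoRNA tables together, the adjusted p of this last pair was 2.04e-06. The 3 sites of this RNA thus differed in relative loss in this model, and the 5′-most site kept the least. All pair tests took the sites as independent, although the sites share the same 4 libraries. Their intervals and p-values therefore do not allow for that sharing.

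U13 kept a smaller share than the better preserved U8 sites. The share left at U8 21-22 was 2.55 times that at U13 (1.71 to 3.79), and at U8 107-108 it was 3.43 times (2.30 to 5.13), with adjusted p = 5.19e-06 and 2.65e-09 in the limma-moderated model. The first of these no longer passed when a knockdown library was left out, with adjusted p = 0.0588 without replicate 1 and 0.0641 without replicate 2. U8 site 10 and U13 were not separated: the ratio was 1.25, with an interval from 0.833 to 1.86 and an adjusted p of 0.285 in the same model, so the interval holds ratios on both sides of 1. On the scale of odds instead of shares this pair did differ, by 1.57 log2 units (adjusted p = 2.94e-05, limma-moderated model).

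In the authors' deposited table the relative change is 81.5% at U8 10, 62.0% at U8 21-22, 48.9% at U8 107-108 and 85.1% at U13, after subtraction of the untreated rate. All 4 sites, and 48 of the 73, carry the label DKC1-dependent there.

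**Figure D3:**
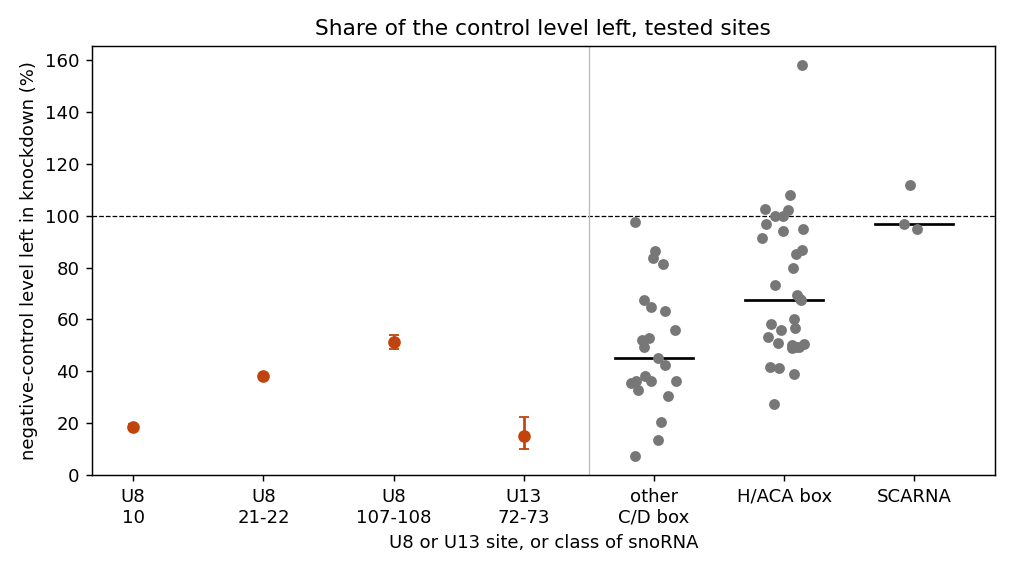
Share of the control level left in DKC1 knockdown, in percent, for each U8 and U13 site (bars are 95% intervals from the fitted model) and for the other tested sites by class of snoRNA (horizontal lines are medians). U8 10 and U13, at 18.6% and 14.9%, lie near the bottom of all sites, whereas U8 107-108, at 51.3%, lies near the median of 56.0% over all 62.

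Set among the 62 tested sites, U13 had the third lowest share left, U8 10 the fourth, U8 21-22 ranked 13 and U8 107-108 ranked 27. The median share left was 28.3% over the 4 sites and 56.0% over all 62. It was 45.0% over 23 sites of other C/D box snoRNAs, 67.7% over 32 H/ACA sites and 96.8% over 3 sites of small Cajal body RNAs. These medians are descriptions, and the range over the other C/D box sites alone, 7.35% to 97.6%, contains all 4 sites.

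The list of 16 other genes of RNAs known for ribosomal RNA processing held several gene copies each of U3 and U14. Whether the authors' counting separated reads of such copies is not given in the sources used here. Of the 16 genes, SNORD3A (U3) and SNORD14B (U14) were in the table, with 5 sites. None of the 5 was called in either direction, against 17 of 62 sites (27.4%) called lower in the table, and their median share left was 51.9%. At U3 181-182 and U14 33-35 the control level was under 10%, so these sites could not be called. At U3 48-50, U3 11-13 and U14 26-27 it was 14.8%, 13.5% and 11.7%, so a fall of 10 points needed the loss of most of it. The lack of calls therefore says little about U3 and U14. U3, which acts in the early cleavages of the small subunit precursor, stood at 5.36% in the knockdown and 14.8% in the control at its site 48-50, with 36.3% left. Its site 11-13 stood at 8.52% and 13.5%, and its site 181-182 at 2.99% and 5.66%. U14, which acts in the same early steps and also guides a methylation, stood at 2.74% in the knockdown and 8.95% in the control at site 33-35 and at 6.06% and 11.7% at site 26-27. Their control levels were all below 15%, well under those of U13 and of U8 21-22 and 107-108. All 5 had an adjusted p under 0.05 in the limma-moderated model with differences under 10 points, the largest adjusted p being 2.89e-07, at U3 site 11-13.

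The sites most like each of these, by Euclidean distance of levels over the 4 treated libraries, were mixed in class. U8 10 was nearest to SNORD83B site 65-66, 1.13 points away, which stood at 1.84% in the knockdown and 8.92% in the control. U8 21-22 was nearest to SNORD92 site 31-33, 5.90 points away, at 14.4% and 40.5%. U8 107-108 was nearest to site 104-107 of the H/ACA snoRNA SNORA74A, 6.55 points away, at 19.9% and 48.2%. The nearest site to U13, SNORD32A site 27, was 20.8 points away, at 22.3% in the knockdown and 68.2% in the control. Its knockdown libraries stood apart, at 15.4% and 29.2% (SD 9.75, n = 2), so this distance includes a wide spread. Distances in points depend on the level and depth of a site, so they are not compared between U8 and U13.

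Coverage of U8 and U13 in treated libraries was nearly the same in both genotypes. Mean covering reads in treated libraries, as knockdown over control, had ratios of 0.963 at U8 10, 0.938 at U8 21-22, 1.01 at U8 107-108 and 1.02 at U13. In untreated RNA the ratios were 0.851, 0.849, 0.997 and 0.958, so U8 10 and 21-22 stood lower there. Untreated medians were 0.834 over other C/D box sites and 0.281 over H/ACA sites. Other C/D box sites had a median ratio of 1.03 in treated libraries (0.755 to 2.27), H/ACA sites 0.284 (0.0749 to 0.688) and the 3 small Cajal body sites 0.294. The ratios of U8 and U13 thus lay within the range of C/D box sites and above every H/ACA site. The lower levels at U8 and U13 therefore stood beside nearly equal numbers of reads in treated libraries. The table gives no library totals, so these are ratios of raw reads and not of abundance, and in bulk RNA fewer cells with an RNA and less of it per cell cannot be told apart.

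**Figure D4:**
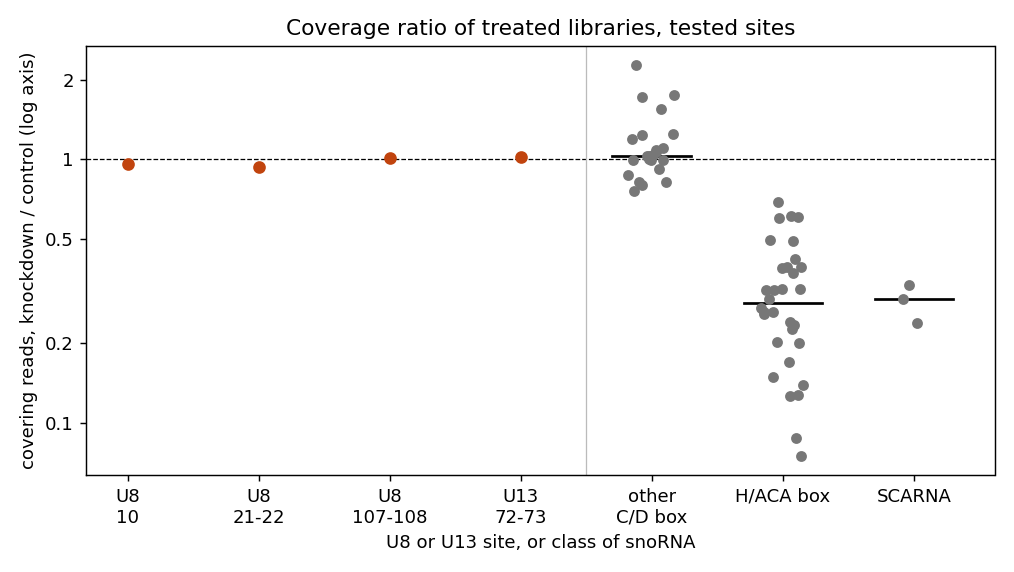
Ratio of mean covering reads in treated libraries, knockdown over control (log axis), for each U8 and U13 site and for the other tested sites by class (horizontal lines are medians). U8 and U13 lie between 0.938 and 1.02, within the C/D box range, and all H/ACA sites lie below 0.7.

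Along U8, reads were unevenly spread in treated RNA. Coverage at 107-108 was 7.08% and 6.00% of that at 21-22 in treated knockdown libraries and 5.80% and 6.22% in treated control libraries. In untreated RNA it was 43.5% in the knockdown and 37.1% in the control. The level at 107-108 thus rests on far fewer reads than those at the 5′ sites after treatment, in knockdown and control alike. Whether this coverage bears on the share left at 107-108 was not tested.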

How the data were processed

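Per the file headers, the deposited snoRNA table gives for each library the count of reads with a deletion, the count of reads covering the site, and the deletion rate as a fraction. The authors' change column, of another (other) unit, is an unsigned relative change. GRCh38 is the build in the submitters' processing notes, which also list BWA, cutadapt, SAMtools 1.14 and UMI-tools 1.0.0 without their roles; the way deletions were counted and the filters on sites are not given in the sources used here, so both could shift the levels. Input was 300 ng of small RNA, with 100 ng kept untreated, per the labels. In the deposited table, knockdown deletion counts equalled rate times covering reads at 2 of 73 sites in each treated library and control counts at all 73, so that product was used for the knockdown.

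Levels are deletions over covering reads in percent. Sites with 20 or more reads in each treated library were fitted with a quasi-binomial model in R 4.3.3; dispersion was moderated over the table with limma 3.58.1 (squeezeVar) with a floor of 1. F tests (two-sided) gave p-values, adjusted over 62 sites after Benjamini and Hochberg. A call needed an adjusted p under 0.05 and 10 points. Ratios of shares left used the delta method with that dispersion and took the sites as independent. Single libraries have exact (Clopper-Pearson) 95% intervals, and a count of 0 allows up to 3 counts. The code was tested on simulated data. The named sites are those of SNORD118, SNORD13 and the processing list, and the 3 sites of other genes nearest in level to each, of which the nearest is given. Members, lists and tests were chosen with earlier results of these data known. Alternatives comprised read minimums, subtraction of background, deposited counts, a replicate block, each library left out, other tests and other thresholds. The tRNA tables were not used here.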

Additional observations from a re-analysis of the deposited data

How the results depend on the processing

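The direction at all 4 sites, and the calls at U8 21-22, U8 107-108 and U13, held under every alternative run. Requiring no minimum difference, an alternative chosen after seeing the data, added U8 10 at -7.80 points and moved the count of lower sites to 43 from 17, whereas a 20-point threshold gave 9. Leaving out single libraries gave 7 to 20 lower sites, and 1.29 to 1.40 log2 units for the share left at U8 21-22 over that at U13. Reading the knockdown deletion counts as deposited, which contradict the rates, gave 52 lower sites and shares left of 0% at U8 10, 0.0255% at U8 21-22, 0.133% at U8 107-108 and 0% at U13. Under that reading none of the 6 pairs passed: the log2 ratios were -2.22 for U8 10 over 21-22, -4.60 for 10 over 107-108, -2.38 for 21-22 over 107-108, and against U13 they changed sign, to -5.46, -3.24 and -0.86 for U8 10, 21-22 and 107-108. On the scale of odds, U8 10 over U13 came to 1.57 log2 units. The size of the p-values depended on the model: with dispersion moderated over the snRNA and snoRNA tables together, the adjusted p ran from 1.75e-17 (U8 21-22) to 9.63e-08 (U13), and by limma on percent from 0.000475 to 0.00428. The replicate block gave 18 lower sites and, for U13, -55.9 points (adjusted p = 4.11e-43 with limma-moderated dispersion); it changed no call at U8 or U13. The labels tie equal replicate numbers to no shared batch, and deviations of equal numbers correlated at 0.084 over 62 sites. U13 rests on 134 to 175 reads per treated library, which limits its precision. With 2 technical replicates per genotype, spread between cultures was not measured.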
